A study of Zea mays with 4 samples.

Results

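The levels of 3 regulators of the plant cell cycle were followed in whole maize (Zea mays) kernels of the zmknl1 mutant and of wild type (WT) plants. They were the retinoblastoma-related gene rrb1 (GRMZM2G003043), the cyclin gene cyclin4 (GRMZM2G310115) and the kinase gene wee1 (GRMZM5G878541). These 3 genes were taken by their IDs from the 39625 gene IDs counted in each library, and all 3 passed the filter on low counts that left 19519 tested genes. Kernels were collected 14 days after pollination from field-grown plants, and each genotype had 2 libraries from different ears, given as independent biological replicates. The mutant label refers to KNL1, a large protein of the outer part of the kinetochore, the structure through which chromosomes meet the spindle. The labels give no allele, genetic background or number of kernels per library.

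A maize kernel holds endosperm, embryo and maternal tissue. Cells of the young endosperm first divide and then pass into endoreduplication, repeated rounds of DNA synthesis without mitosis, while they fill with starch and storage protein. In the general model, retinoblastoma-related proteins bind E2F transcription factors and hold back genes needed for DNA synthesis, until kinases bound to cyclins phosphorylate them. Whether every maize gene of this family acts in that way was not tested here. Cyclins are the regulatory subunits of these kinases. WEE1 phosphorylates and inhibits cyclin-dependent kinases, and in maize it has been studied for its possible part in endosperm endoreduplication.

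Reads counted in genes numbered 16595289 to 22725030 per library. WT replicate 2 stood apart: its 10 most abundant genes took 25.3% of gene counts, against 6.74 to 7.77% in the other 3 libraries, and 23.9% of its reads aligned to several places, against 10.9 to 13.5%. Levels below are counts per 1000000 counts (CPM) on library sizes scaled by TMM, a trimmed mean that limits the weight of the most abundant genes. The TMM factor was 0.707 in WT replicate 2 and 1.10 to 1.16 elsewhere. Across all tested genes, both zmknl1 libraries lay above both WT libraries in 21.9% and below them in 20.0%, the background for the counts that follow. Over the kernel marker genes, summed CPM of starchy endosperm (7 genes) was 9307 and 10970 in zmknl1, against 15110 and 45100 in WT, and 5 of the 7 lay below both WT libraries. The remaining genes of this list, z1C2 and zp27, overlapped. For z1C2 WT replicate 1 had 849 CPM and WT replicate 2 had 20900 CPM, against 3349 and 2777 CPM in zmknl1. Much of the sum in WT replicate 2 was therefore z1C2. Summed CPM of embryo and oil body genes (5 IDs) was 191 and 78.0 in zmknl1, against 2839 and 545 in WT, with 3 of the 5 below both WT libraries and 1 above. The ID above was a glb1 entry (GRMZM2G067402), at 0.657 and 0.959 CPM in zmknl1, against 0 and 0.341 CPM in WT. The glb2 level was 0 in zmknl1, against 249 CPM in WT replicate 1 and 5.37 CPM in WT replicate 2. Most of the WT sums came from ole1, at 2156 and 449 CPM. Basal endosperm transfer layer genes (9 IDs) summed to 230 and 156 CPM in zmknl1, against 48.7 and 60.5 CPM in WT, with 7 of the 9 above both WT libraries, betl1 at 0 in all 4 libraries and ebe2 at 0 in WT. From the aleurone list only vp1 and IDDveg9 were matched to an ID, and al9 and ltp2 were not. These 2 genes summed to 55.5 and 76.8 CPM in zmknl1, against 155 and 161 CPM in WT, and both lay below both WT libraries. Whether they stand for aleurone alone was not tested. From the other marker lists su1, betl9, ole2 and ole3 were not matched. Genes of the embryo surrounding region (4 IDs) summed to 3.90 and 7.67 CPM in zmknl1, against 0.264 and 14.2 CPM in WT. The part of this tissue makeup in the values of the 3 regulators was not tested. In these bulk libraries fewer cells of a type and less RNA per cell cannot be told apart.

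None of the 3 regulators passed the test between genotypes. The edgeR quasi-likelihood test called 4 of 19519 genes (0.0205%) at an adjusted p of 0.05, of which 3 were higher (0.0154%) and 1 lower (0.00512%) in zmknl1. A count of 0 in 3 members is therefore no different from that background. Beside that count, 1999 genes (10.2%) had an unadjusted p under 0.05 and none of the 3 did. DESeq2 called 679 of the 18762 genes for which it gave an adjusted p (3.62%), and likewise 0 of the 3 members. The cyclin4 transcript had the largest difference of the 3, with a fitted level in zmknl1 of 0.521 times that in WT. The fitted level of rrb1 in zmknl1 was 0.774 times that in WT and that of wee1 was 1.07 times, neither past the test.

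The gene rrb1 encodes a retinoblastoma-related protein, the restraint on entry into DNA synthesis. It had 81.1 and 56.8 CPM in zmknl1 (1852 and 1421 counts), against 95.0 and 83.1 CPM in WT (2163 and 975 counts). Both zmknl1 libraries therefore lay below both WT libraries, but the higher zmknl1 library was separated from the lower WT library by less than the 2 zmknl1 libraries were from each other. Means were 68.9 ± 17.2 CPM in zmknl1 and 89.1 ± 8.40 CPM in WT (SD, n = 2 each). The log2 fold change, zmknl1 over WT, was -0.37 ± 0.38 (SE), with an edgeR adjusted p of 0.830 and a 95% interval of -1.27 to 0.53. That interval includes a fall to 0.414 of the WT level as well as a rise to 1.44 times it.

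The separation of rrb1 levels also rested on the scaling. On total counts, without TMM, rrb1 had 94.0 and 62.5 CPM in zmknl1, against 104.8 and 58.8 CPM in WT, so the groups overlapped. The log2 fold change was then -0.06, while the median over all tested genes was 0.34. Relative to the median gene, rrb1 was -0.40 with total counts and -0.38 with TMM. Of the 3 members, rrb1 and cyclin4 lay below both WT libraries with TMM, a position held by 20.0% of all tested genes.

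The gene cyclin4 encodes a cyclin; the reference table does not say of which type. It had 31.5 and 19.6 CPM in zmknl1 (719 and 490 counts), against 56.4 and 41.5 CPM in WT (1284 and 487 counts). The groups did not overlap: the lower WT library stood above the higher zmknl1 library. Exact Poisson 95% intervals, which cover counting error only, were 29.2 to 33.9 CPM and 17.9 to 21.4 CPM in zmknl1, against 53.4 to 59.6 CPM and 37.9 to 45.4 CPM in WT. No interval met another, also between libraries of the same genotype, so replicates differed by more than counting error.

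Mean cyclin4 levels were 25.5 ± 8.43 CPM in zmknl1 and 49.0 ± 10.5 CPM in WT (SD, n = 2 each), a log2 fold change of -0.94 ± 0.43 (SE). The 95% interval ran from -1.96 to 0.07, and the edgeR adjusted p was 0.531 (unadjusted 0.0648). The mean in WT was 1.92 times that in zmknl1. Between replicates the higher library exceeded the lower by 1.61-fold in zmknl1 and 1.36-fold in WT. The nearest libraries across genotypes, at 31.5 CPM in zmknl1 and 41.5 CPM in WT, were closer than the 2 replicates of either genotype. The log2 fold change lay at the 13.8th percentile of those over all tested genes, whose middle 50% ran from -0.53 to 0.54. On total counts cyclin4 measured 36.5 and 21.6 CPM in zmknl1, against 62.2 and 29.4 CPM in WT, and the groups overlapped. Against the median gene, its log2 fold change was -0.995 with total counts and -0.947 with TMM. Without each library in turn the log2 fold change ranged from -1.32 to -0.64.

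The gene wee1 encodes the kinase that inhibits cyclin-dependent kinases. It had 9.37 and 15.8 CPM in zmknl1 (214 and 395 counts), against 8.57 and 15.0 CPM in WT (195 and 176 counts). Each genotype thus had a library near 9 CPM, replicate 1, and another near 15 CPM, replicate 2, and the groups overlapped throughout. The higher library exceeded the lower by 1.68-fold in zmknl1 and by 1.75-fold in WT, and the Poisson intervals of the 2 libraries did not meet in either genotype. In zmknl1 they were 8.16 to 10.7 and 14.3 to 17.4 CPM, and in WT 7.41 to 9.86 and 12.9 to 17.4 CPM.

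Means of wee1 were 12.6 ± 4.53 CPM in zmknl1 and 11.8 ± 4.56 CPM in WT (SD, n = 2 each). The log2 fold change was 0.10 ± 0.56 (SE), with an edgeR adjusted p of 0.977. Its 95% interval, -1.21 to 1.40, does not show that the genotypes had the same level. On total counts wee1 had 10.9 and 17.4 CPM in zmknl1, against 9.45 and 10.6 CPM in WT, and both zmknl1 libraries then lay above both WT libraries. The share of all tested genes in that position was not counted for this scaling, which moved their median log2 fold change to 0.34. Against the median gene, wee1 stood at 0.16 with total counts and at 0.09 with TMM. The sign of the difference turned with the libraries used: the log2 fold change was -0.26 when WT replicate 1 was left out and -0.33 when zmknl1 replicate 2 was. It was 0.56 with WT replicate 2 left out and 0.42 with zmknl1 replicate 1 left out.

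**Figure D1:**
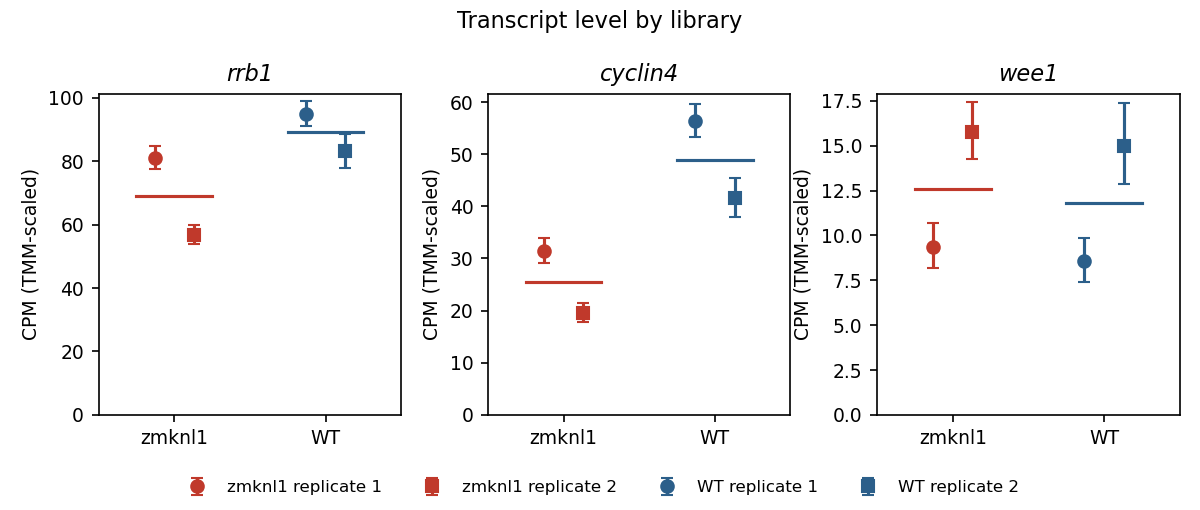
Transcript level (CPM on TMM-scaled library sizes, axes from 0) of rrb1, cyclin4 and wee1 in each of the 4 libraries; points are libraries, error bars exact Poisson 95% intervals, horizontal lines the mean of each genotype. The zmknl1 libraries lie below the WT libraries for rrb1 (81.1 and 56.8, against 95.0 and 83.1 CPM) and cyclin4 (31.5 and 19.6, against 56.4 and 41.5 CPM), while those of wee1 overlap. Of all tested genes, 20.0% lie below both WT libraries. On total counts, without TMM, the genotypes overlap for rrb1 and cyclin4.

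Over the 4 libraries rrb1 and cyclin4 ran in the same order, highest in WT replicate 1, then WT replicate 2, zmknl1 replicate 1 and zmknl1 replicate 2. The order of wee1 was zmknl1 replicate 2, WT replicate 2, zmknl1 replicate 1 and WT replicate 1. For rrb1 the neighbours WT replicate 2 and zmknl1 replicate 1 did not differ beyond counting error, with Poisson intervals of 78.0 to 88.5 and 77.5 to 84.9 CPM. Neither did the highest and next libraries of wee1, nor its lowest pair.

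**Figure D2:**
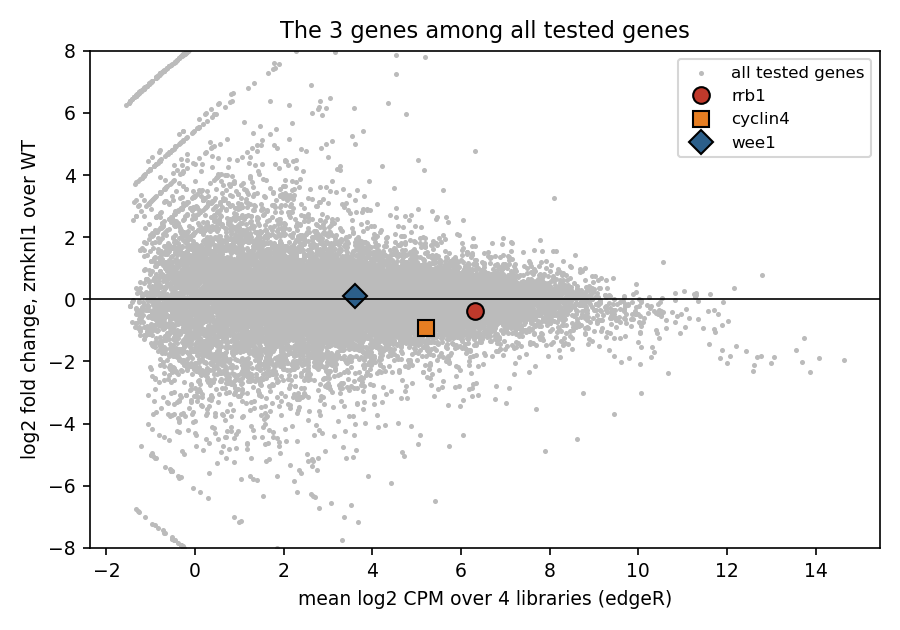
Log2 fold change, zmknl1 over WT, against mean log2 CPM for the 19519 tested genes (grey), with rrb1, cyclin4 and wee1 marked; the vertical axis ends at 8 on the log2 scale in either direction, and 141 genes lie beyond it. All 3 sit inside the cloud of tested genes, at log2 fold changes of -0.37, -0.94 and 0.10.

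Ratios of counts within a library do not depend on how libraries are scaled. The cyclin4 counts per 100 rrb1 counts were 38.8 and 34.5 in zmknl1, against 59.4 and 50.0 in WT. This ratio kept the genotypes apart, by -0.57 on the log2 scale, and averaged 36.6 ± 3.07 in zmknl1 and 54.7 ± 6.66 in WT (SD, n = 2 each). Its two-sided exact permutation p was 0.333, the smallest that 2 libraries against 2 can give. The wee1 counts per 100 rrb1 counts were 11.6 and 27.8 in zmknl1, against 9.02 and 18.1 in WT, which overlapped (exact permutation p = 0.667). Per 100 cyclin4 counts, wee1 had 29.8 and 80.6 counts in zmknl1, against 15.2 and 36.1 in WT (exact permutation p = 0.667). Both ratios with wee1 overlapped between the genotypes. These ratios carry no correction for transcript length, so they compare libraries and not the levels of the genes.

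The reference names 3 retinoblastoma-related genes, and the other two showed no call either. The close relative rrb2 (GRMZM2G153150) had 28.7 and 18.0 CPM in zmknl1, against 37.9 and 23.9 CPM in WT, and a log2 fold change of -0.40 ± 0.46 (SE, edgeR adjusted p = 0.846). Without WT replicate 1 the rrb2 value was -0.04 and without zmknl1 replicate 2 it was -0.10. The third gene, rbr3 (GRMZM2G033828), had 18.7 and 17.7 CPM in zmknl1, against 24.9 and 12.5 CPM in WT, and a log2 fold change of -0.05 ± 0.49 (SE, edgeR adjusted p = 0.988), or 0.53 without WT replicate 1. Both overlapped between the genotypes. Of all counts in the 3 genes, rrb1 held 63.1 and 61.4% in zmknl1, against 60.2 and 69.5% in WT. The Wilson 95% intervals of these shares were 61.3 to 64.8% and 59.4 to 63.4% in zmknl1, against 58.6 to 61.8% and 67.1 to 71.9% in WT, so WT replicate 2 alone stood apart from the other 3. Reads that align equally well to related genes were set aside by the counting, which makes the split among relatives uncertain.

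Beyond the 3 members, the cell cycle list held 10 other IDs, of which 9 were tested and 0 passed in either direction. edgeR gave 0 of the 9 an unadjusted p under 0.05 and DESeq2 called 0. Over all tested genes, 10.2% had an unadjusted edgeR p under 0.05 and edgeR called 0.0205%. DESeq2 called 3.62% of the genes for which it gave an adjusted p. Counts of 0 in 9 genes are little different from these shares. The log2 fold changes of the 9 ran from -0.55 to 1.42, with a median of -0.05, against a median of 0.01 over all tested genes. Of the 9, 2 lay above both WT libraries, 0 below and 7 overlapped. Above both WT libraries also lay 21.9% of all tested genes, so 2 of 9 is close to the background.

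The 2 genes above both WT libraries were numbered cyclins. The gene cyc3 (GRMZM2G073671) had 13.9 and 42.7 CPM in zmknl1, against 7.91 and 13.4 CPM in WT, and a log2 fold change of 1.42 ± 0.64 (SE, edgeR adjusted p = 0.518). The value of cyc3 rested on zmknl1 replicate 2, without which it was 0.38. The gene cyclin9 (GRMZM2G017081) had 20.2 and 34.3 CPM in zmknl1, against 15.8 and 16.5 CPM in WT (log2 fold change 0.75, edgeR adjusted p = 0.653), and its log2 fold change was 0.32 without zmknl1 replicate 2. Whether cyclin4 differed from these cyclins in its response was not tested. The remaining numbered cyclins cyc1 and cyclin8, with log2 fold changes of -0.46 and -0.10, both of which turned positive without WT replicate 2 (0.20 and 0.25), overlapped between genotypes.

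The D-type cyclins, which with their kinases act on retinoblastoma-related proteins, gave no call. The gene cycD2 (GRMZM2G075117) had 76.5 and 51.7 CPM in zmknl1, against 122.8 and 64.6 CPM in WT, a log2 fold change of -0.55 ± 0.46 (SE, edgeR adjusted p = 0.771). The groups overlapped, and the value rested on the WT libraries: leaving out WT replicate 1 gave -0.02 and leaving out WT replicate 2 gave -0.93. The gene cycD1 (GRMZM2G006721) had 0.175 and 2.84 CPM in zmknl1, against 2.15 and 0.853 CPM in WT, which overlapped, and cycD4 did not pass the filter on low counts. The kinase gene cdc2 (GRMZM2G008327), which encodes the cyclin-dependent kinase that WEE1 proteins inhibit, had 38.5 and 36.4 CPM in zmknl1, against 27.5 and 40.2 CPM in WT. Its log2 fold change was 0.15 ± 0.40 (SE, edgeR adjusted p = 0.947), or -0.11 without WT replicate 1.

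**Figure D3:**
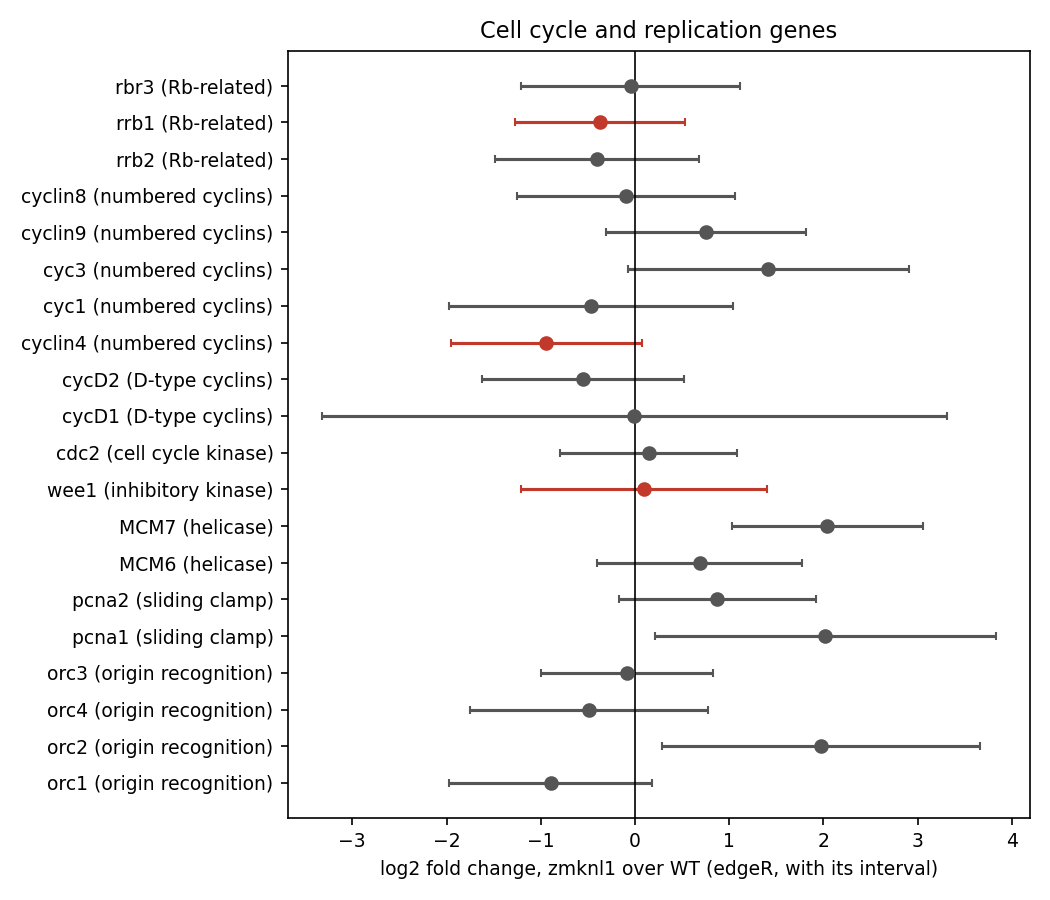
Log2 fold change, zmknl1 over WT, with edgeR 95% intervals, for the 12 tested cell cycle genes and the 8 replication genes; rrb1, cyclin4 and wee1 are in red, the other genes in grey. The intervals of rrb1, cyclin4 and wee1 include 0, and those of MCM7, pcna1 and orc2 (3 of 8) lie above 0 before adjustment for the number of genes tested. Over all tested genes, 10.2% had an unadjusted edgeR p under 0.05, in either direction.

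Genes for DNA synthesis were set beside rrb1 as a list of 8. edgeR called 0 of the 8 and DESeq2 called 1, beside 3.62% of all genes in DESeq2. Of the 8, 5 lay above both WT libraries, where 21.9% of all tested genes lay, and 1 below, beside 20.0%. The median log2 fold change was 0.78, against 0.01 over all tested genes. The DESeq2 call was the helicase subunit gene MCM7 (GRMZM2G065205), at 39.6 and 44.4 CPM in zmknl1, against 12.0 and 8.36 CPM in WT (DESeq2 adjusted p = 0.00442, edgeR 0.229). The sliding clamp gene pcna1 (GRMZM2G030523) had 18.9 and 21.8 CPM in zmknl1, against 1.71 and 8.44 CPM in WT (edgeR adjusted p = 0.426). Its log2 fold change of 2.02 became 1.26 when WT replicate 1 was left out and 3.58 when WT replicate 2 was. The other listed helicase and clamp genes, MCM6 (GRMZM2G021069) and pcna2 (GRMZM2G108712), had smaller log2 fold changes of 0.69 and 0.87 (edgeR adjusted p = 0.698 and 0.581). Among origin recognition genes, orc4 (GRMZM5G876520) and orc3 (GRMZM2G381822) overlapped between genotypes, with log2 fold changes of -0.49 and -0.08 (edgeR adjusted p = 0.838 and 0.971). The value of orc4 was 0.29 without WT replicate 2 and that of orc3 0.14 without WT replicate 1. The rrb1 transcript measured lower in zmknl1, and no test joined the rrb1 value to those of these genes.

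Among named genes with a mean of at least 5 CPM, 112 in all, likeness to each member was taken as the Euclidean distance between centred log2(CPM + 1) profiles over the 4 libraries. The nearest to rrb1 were mbd123, sbp9 and mbd117, at distances of 0.180, 0.269 and 0.286, against a median distance of 1.41. For instance mbd123 (GRMZM2G119802) had 7.40 and 5.91 CPM in zmknl1, against 9.40 and 7.67 CPM in WT. The nearest to cyclin4 were mbd111, sbp17 and mbd108, at 0.269, 0.315 and 0.516, and mbd111 (GRMZM2G025095) had 51.2 and 40.2 CPM in zmknl1, against 112.2 and 71.9 CPM in WT. The nearest to wee1 were MNB1B, bk4 and IDP755, at 0.162, 0.183 and 0.249, and MNB1B (GRMZM5G834758) had 283 and 445 CPM in zmknl1, against 283 and 407 CPM in WT. With 4 libraries such likeness is a description only.

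**Figure D4:**
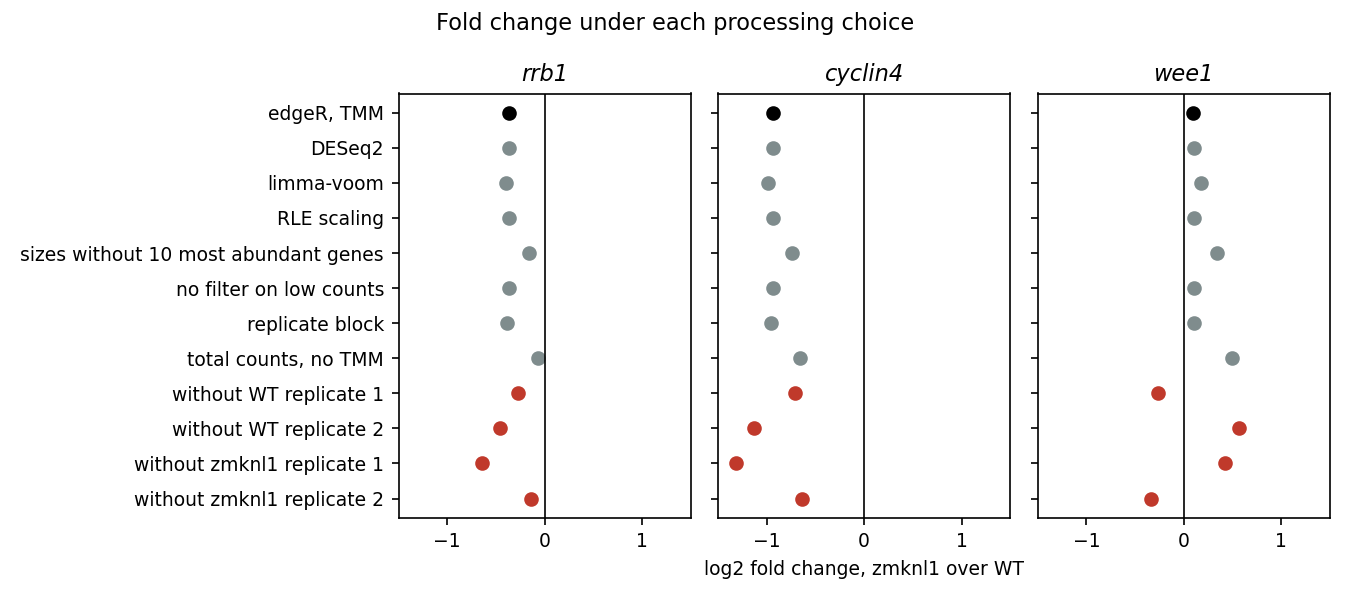
Log2 fold change, zmknl1 over WT, of rrb1, cyclin4 and wee1 under edgeR with TMM (black), 7 other tools, scalings, filters or designs (grey) and with each library left out (red). The values of cyclin4 (-1.32 to -0.64) and rrb1 (-0.65 to -0.06) stay below 0 in all of them, and those of wee1 (-0.33 to 0.56) fall on both sides.

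Under every tool, scaling and left-out library tried, rrb1 and cyclin4 kept their direction, and with all 4 libraries none of the 3 genes was called. With TMM both zmknl1 libraries of these 2 genes lay below both WT libraries, so leaving 1 out could hardly turn the sign. The other tools refitted the same 4 libraries, so the kept direction adds little support. The lowest adjusted p of cyclin4 was 0.182, without WT replicate 2, and 3 of its 11 alternatives had an unadjusted p under 0.05. For rrb1 and wee1 0 of 11 did.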

How the data were processed

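The authors deposited raw read counts per gene, a table per library with no normalization. Per the submitters' processing notes, reads were trimmed with Trimmomatic 0.36, aligned with HISAT2 2.0.1 to B73 RefGen_v3 and counted with HTSeq; the counting version, mode and strand setting are not given in the sources used here, so a read from an overlapping or antisense partner may stand under either gene. Lines that name no gene (35.8 to 47.8% of reads per library) were left out.

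Counts were filtered with filterByExpr, scaled with TMM and tested with the edgeR 4.0.16 quasi-likelihood F-test in R 4.3.3, zmknl1 over WT, with no covariate; p-values were two-sided and adjusted by Benjamini-Hochberg across the 19519 genes, with 0.05 as the limit. Each standard error is the absolute log2 fold change divided by the square root of F. The alternatives were DESeq2 1.42.0 (adjusted p missing for 757 genes), limma-voom (limma 3.58.1), further scalings, no filter, a replicate block, and fits without each library; the scaling by total counts was added after seeing the data. Fits were tested on simulated data, in which every planted change was larger than those fitted for the members. That test therefore does not show how often changes of the members' size would be called. No library was a copy of another: chi-square per degree of freedom between replicates was 83.6 in zmknl1 and 403 in WT.

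Names came from a RefSeq table of Zm-B73-REFERENCE-NAM-5.0, another assembly than that used for counting, so no coordinates are given; 19060 of 39625 IDs (48.1%) were found in it. Members and lists were chosen with earlier results of these data known. List genes were found by name patterns for 12 roles; 2 IDs whose names also belong to other proteins were left out. Named were up to 4 called genes per role, or failing these the 3 of highest mean CPM, and the 3 nearest named profiles per member; cyc1, cyclin8 and orc2 were named after their values were seen.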

Additional observations from a re-analysis of the deposited data

How the results depend on the processing

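For rrb1 and cyclin4 all 11 alternatives kept the direction, and those with all libraries gave no call. Log2 fold changes without each library ranged from -0.65 to -0.14 for rrb1 and from -1.32 to -0.64 for cyclin4. As the genotypes did not overlap with TMM, a kept direction on leaving out a library was nearly fixed beforehand. The sign of wee1 turned without WT replicate 1 (-0.26) and without zmknl1 replicate 2 (-0.33), and the left-out values ran from -0.33 to 0.56. In both genotypes wee1 was lower in replicate 1 than in replicate 2, and the cause of that difference was not tested. No setting called a member of the cell cycle list. In the replication list, edgeR called 0 with all libraries and DESeq2 1, edgeR without a filter on low counts 2 (MCM7 and pcna1), and with each library left out 0 to 1 (pcna1, without WT replicate 2). Over all tested genes, edgeR called 3 higher and 1 lower in zmknl1, DESeq2 299 higher and 380 lower, limma-voom 0 and 0 (2183 genes at an unadjusted p under 0.05), total counts without TMM 0 and 0, and no filter 303 higher and 412 lower; left-out libraries gave 7 to 415 higher and 12 to 390 lower, with 65 and 101 on leaving out WT replicate 1, 415 and 390 for WT replicate 2, 7 and 12 for zmknl1 replicate 1, and 23 and 12 for zmknl1 replicate 2. Total counts moved the median of all genes to 0.34 and sizes without the 10 most abundant genes moved it to 0.22. The replicate numbers are not stated to pair the libraries, and deviations of same-numbered libraries correlated at 0.365 across genes; with the replicate block edgeR called 267 genes higher and 375 lower, 2 in the replication list and 0 in the cell cycle list, and rrb1, cyclin4 and wee1 had log2 fold changes of -0.39, -0.96 and 0.10. The common biological coefficient of variation over all genes was 0.536, with 2 libraries per genotype.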

Other observations

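The reference also named 3 cyclins outside the list, looked up after its names were seen. The gene cyclin-C (GRMZM2G408242), whose relatives in other organisms act with a kinase of the transcription machinery, had 56.7 and 53.4 CPM in zmknl1, against 36.5 and 46.1 CPM in WT. Both zmknl1 libraries lay above both WT libraries, as 21.9% of all tested genes did, with a log2 fold change of 0.42 ± 0.37 (SE, edgeR adjusted p = 0.796), or 0.25 without WT replicate 1. The gene Cyclin-SDS (GRMZM2G093157), named after an Arabidopsis cyclin of meiosis, had 2.85 and 8.63 CPM in zmknl1, against 0.835 and 3.58 CPM in WT, and overlapped. The gene cyclin11 (GRMZM2G161382) had 0 and 0.719 CPM in zmknl1, against 0 and 1.02 CPM in WT. None of the 3 was called.

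Of the 4 origin recognition genes in the replication list, orc3 and orc4 overlapped between genotypes and the other two lay on opposite sides. The gene orc2 (GRMZM2G117238) had 9.02 and 13.7 CPM in zmknl1, against 1.58 and 4.26 CPM in WT (edgeR adjusted p = 0.406). The gene orc1 (GRMZM2G455243) had 9.33 and 10.8 CPM in zmknl1, against 19.0 and 18.5 CPM in WT (edgeR adjusted p = 0.587). Neither passed the test; above both WT libraries, as orc2, lay 21.9% of all tested genes, and below them, as orc1, 20.0%. Without WT replicate 2 the log2 fold change of orc2 was 2.85, and without WT replicate 1 it was 1.41.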
